A study of Mus musculus with 4 samples.

Results

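The 10 genes described here encode enzymes that make ceramide, sphingomyelin, cerebroside and sulfatide. They were chosen by gene symbol and not by a cut on their measured values, but with earlier results of these data known. They are Sptlc1, Sptlc2, Cers2, Degs1, Sgms1, Sgms2, Ugcg, Ugt8a, Fa2h and Gal3st1. All 10 are among the 53465 listed genes, and all 10 passed the filter on low counts, which left 15766 genes for the tests. RNA-Seq was done on 1° mouse oligodendroglial cells (OGCs) grown from the forebrain of mice aged 2 to 4 days and differentiated for 3 days after shake-off and removal of microglia. Ctrl cells were homozygous for a floxed Zfp276 allele (Zfp276 flox/flox), in which loxP sites flank a part of the gene. Zfp276cko cells carried this allele together with the Sox10::Cre transgene (Sox10::Cre tg; Zfp276 flox/flox), which is active in cells that express Sox10, so that other cells of a culture keep the intact gene. Each genotype had 2 preparations, each pooled from 3 mice. For mice used to start such cultures the study also describes a Rosa26 tdTomato reporter allele, which the labels of these libraries do not list. The comparison asks how the transcriptome of differentiating oligodendrocytes (OLs) differs without Zfp276, a zinc finger protein.

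Sphingolipids are built from ceramide, and myelin is unusually rich in the galactose-bearing kind. Serine palmitoyltransferase, a complex of Sptlc1 and Sptlc2, joins serine to a fatty acyl chain, Cers2 adds a very long fatty acid, and Degs1 introduces the double bond that completes ceramide. From there the pathway branches. Sgms1 and Sgms2 make sphingomyelin, Ugcg adds glucose and opens the way to gangliosides, and Ugt8a adds galactose to give galactosylceramide. Fa2h hydroxylates the fatty acid of many myelin galactolipids, and Gal3st1 turns galactosylceramide into sulfatide. Galactosylceramide and sulfatide are long-used surface markers of OLs, and mice that lack Ugt8a, Gal3st1 or Fa2h have unstable or defective myelin.

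Promoters are shown for the enzymes at both branch points, Sgms1 beside Sgms2 and Ugcg beside Ugt8a, because members of each pair use ceramide as a substrate and differed in their values. The sequences are from RefSeq (build GRCm38.p6, 5′ to 3′ on the strand of the gene), and each runs from 250 bases before a transcription start to 50 bases after it. Where RefSeq lists several starts, the one nearest to the start of the principal GENCODE transcript was taken, and which start these cells used was not tested. RefSeq listed 4 starts for Sgms1, 6 for Sgms2 and 1 each for Ugcg and Ugt8a. The start taken lay 0 bases from the GENCODE one for Sgms1, 25 for Sgms2, 293 for Ugcg and 33 for Ugt8a. The windows of Sgms1, Sgms2 and Ugcg lie wholly inside the spans that GENCODE gives these genes. Capitals mark matches on either strand to the GC box, spelled GGGCGG. They also mark the box named CCAAT after its letters, and the Sox site, which is spelled ACAAAG. The windows are chr19:32388463-32388762 for Sgms1, chr3:131344859-131345158 for Sgms2, chr4:59189300-59189599 for Ugcg and chr3:125938603-125938902 for Ugt8a. Of these, only the window of Ugcg is on the plus strand.
Sgms1: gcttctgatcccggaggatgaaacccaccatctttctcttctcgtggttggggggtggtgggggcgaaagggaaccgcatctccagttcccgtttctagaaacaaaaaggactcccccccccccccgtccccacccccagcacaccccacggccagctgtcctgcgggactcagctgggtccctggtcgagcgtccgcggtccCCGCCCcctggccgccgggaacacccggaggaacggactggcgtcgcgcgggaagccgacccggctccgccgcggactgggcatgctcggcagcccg
Sgms2: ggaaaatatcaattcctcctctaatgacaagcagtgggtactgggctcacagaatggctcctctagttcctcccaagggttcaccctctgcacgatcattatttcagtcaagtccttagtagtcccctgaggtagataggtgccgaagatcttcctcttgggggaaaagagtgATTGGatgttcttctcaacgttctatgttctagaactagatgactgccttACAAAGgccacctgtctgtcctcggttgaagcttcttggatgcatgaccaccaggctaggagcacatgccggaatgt
Ugcg: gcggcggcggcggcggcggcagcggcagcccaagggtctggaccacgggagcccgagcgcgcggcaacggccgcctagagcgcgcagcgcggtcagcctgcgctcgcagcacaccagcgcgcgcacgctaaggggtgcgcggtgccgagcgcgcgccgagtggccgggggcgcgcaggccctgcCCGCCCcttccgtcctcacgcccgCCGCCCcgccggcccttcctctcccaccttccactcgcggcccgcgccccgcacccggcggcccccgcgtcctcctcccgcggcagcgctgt
Ugt8a: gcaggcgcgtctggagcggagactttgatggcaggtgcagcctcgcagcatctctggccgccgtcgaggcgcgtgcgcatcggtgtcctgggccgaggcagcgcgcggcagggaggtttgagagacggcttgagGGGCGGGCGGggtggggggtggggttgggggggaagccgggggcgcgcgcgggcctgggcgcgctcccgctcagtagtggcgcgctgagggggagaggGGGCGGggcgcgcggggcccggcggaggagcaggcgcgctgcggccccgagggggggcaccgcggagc

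The window of Sgms2 differs from the other 3 in base composition. It has a GC content of 48.3% with 5 CpG dinucleotides, against 69.3% with 28 for Sgms1, 81.3% with 53 for Ugcg and 78.3% with 40 for Ugt8a. Over all 32851 windows of the RefSeq table the median was 52.7% with 7 CpG dinucleotides. RefSeq windows were found for 9 of the 10 genes, and Fa2h was not among them. A GC box stood in 6 of the 9 windows (35.7% of all windows), the CCAAT box in 5 (37.4%), the Sox site in Sptlc1 and Sgms2 (18.7%) and the E-box CACGTG in Degs1 and Cers2 (7.15%). The sterol regulatory element TCACNCCAC was searched on both strands as well and stood in none of the 9 windows (1.24% of all windows). These matches describe letters only, and no binding was measured here.

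In GENCODE (release M21, mm10) the genes lie on 8 chromosomes, with Cers2, Sgms2 and Ugt8a on chromosome 3 and the others on chromosomes of their own. Sgms1 (chromosome 19, 32122727 to 32389714) is the longest, and its exons add up to 10546 nt with a coding part of 1257 nt. Sgms2 (chromosome 3, 131318985 to 131491411) has 6227 nt of exons and a coding part of 1095 nt. Ugt8a spans 125865271 to 125938619 on chromosome 3, Fa2h 111345135 to 111393824 on chromosome 8, and Gal3st1 3983636 to 3999326 on chromosome 11. Exons of Cers2 share up to 100 bases with genes on the opposite strand, and those of Sgms1 share 10. The strand setting of the authors' counting is not given in the sources used here, so reads from these stretches may belong to either strand. For the other 8 genes no exon overlaps another gene.

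Counted reads per library were between 21068322 and 26599809. The ctrl libraries differed from each other more than the Zfp276cko libraries did, with a biological coefficient of variation (the relative spread beyond counting error) of 0.354 in ctrl and 0.0480 in Zfp276cko. Zfp276 itself had 1388 and 1982 counts in ctrl cells, against 541 and 585 in Zfp276cko cells, so that the libraries match their labels, and 25.6% of the ctrl level remained. Oligodendroglial genes were abundant in every library, since 12 genes of compact myelin and OLs together took between 9829 and 18242 CPM (counts relative to the library total). Summed markers of microglia lay between 1030 and 1838 CPM, those of astrocytes between 1709 and 1882 and those of neurons between 708 and 1223. The summed levels of the genotypes overlapped for microglia and neurons, while both Zfp276cko libraries lay slightly below ctrl in the astrocyte sum. Single astrocyte markers were mixed, with 2 of 8 below both ctrl libraries, 1 above and a median log2 fold change of 0.06. Over all tested genes, 23.7% lay below and 26.8% above. Map2 made up most of the neuron sum, and some other neuron markers differed between the ctrl libraries, such as Syt1 with 28 and 777 counts. Fibroblast and vessel markers summed to 323 CPM in ctrl replicate 1 and to between 11.7 and 17.6 in the other 3 libraries, with Cldn5 at 0 in all 4. In bulk cultures fewer cells of a type and less RNA per cell cannot be told apart.

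Most of the 10 enzymes were lower in Zfp276cko cells. In 8 of them each Zfp276cko library lay below both ctrl libraries, in 1 (Ugcg) each lay above, and in 1 (Sptlc1) the genotypes overlapped. Over all 15766 tested genes, 23.7% lay below and 26.8% above in this way. The median log2 fold change of the 10 was −0.43, against −0.0013 over all tested genes. At the thresholds of the study (adjusted p of at most 0.05, absolute log2 fold change of at least 0.6, average normalized count of 20 or more), the quasi-likelihood test of edgeR called 0 of the 10, and it called 0.0% of all genes lower and 0.0% higher. With an unadjusted p in place of the adjusted one it passed Sgms2, Ugt8a and Fa2h as lower and no member as higher, against 3.02% of all genes lower and 5.11% higher. DESeq2, the tool of the study, called the same 3 genes lower and none higher, against 2.07% of all genes lower and 2.68% higher. In the quasi-likelihood test of edgeR the smallest adjusted p of any gene was 0.0725. That of the deleted Zfp276 was 0.0962, so that even this gene was not called.

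**Figure D1:**
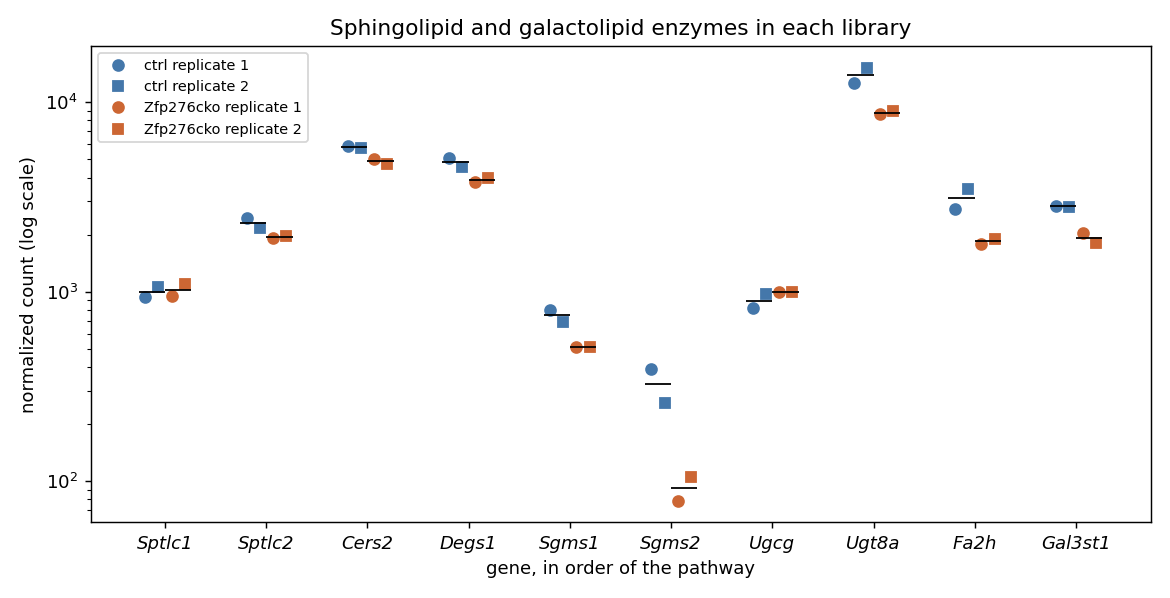
Normalized counts (log scale) of the 10 enzymes in each of the 4 libraries, with ctrl in blue, Zfp276cko in orange and the mean of each genotype as a black line. The genotypes are apart in 9 genes, with Zfp276cko lower in 8 of them, and overlap in Sptlc1.

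The call depended on which ctrl library was present. Without ctrl replicate 1 the quasi-likelihood test called Sgms2, Ugt8a and Fa2h as lower, against 6.03% of all genes lower and 10.7% higher in that fit. Without ctrl replicate 2 it called Sgms2 and Sgms1 as lower, against 7.95% of all genes lower and 11.4% higher. In these fits of 3 libraries the spread came from the Zfp276cko pair alone, and the lone ctrl library was assumed to vary likewise. Leaving out ctrl replicate 1 gave a median of −0.34 over the 10 genes, and leaving out ctrl replicate 2 gave −0.47.

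**Figure D2:**
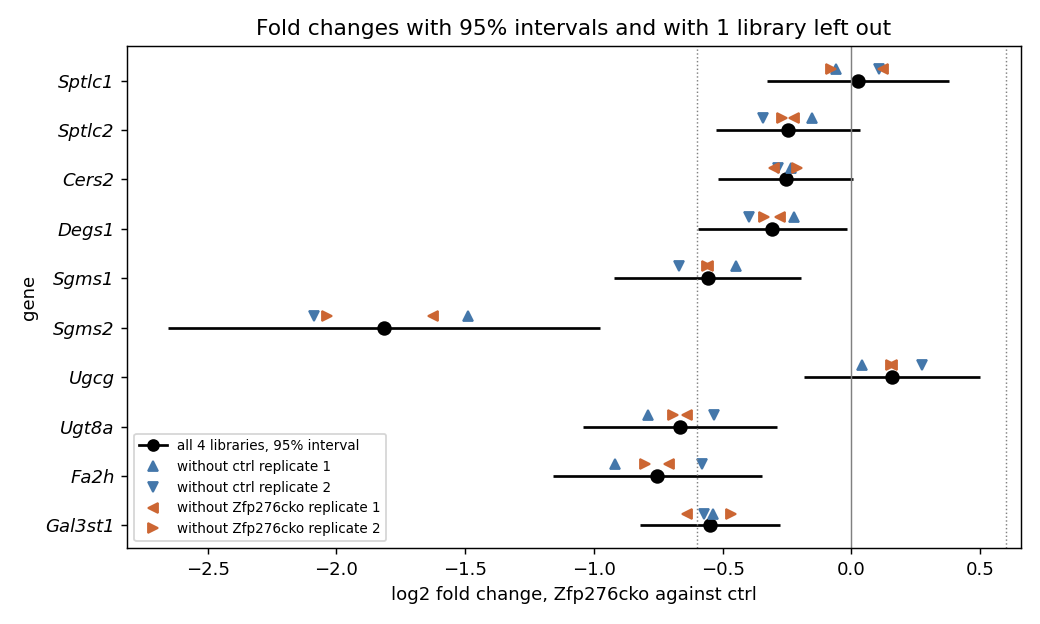
Log2 fold changes of the 10 enzymes by edgeR's quasi-likelihood fit, where black points and lines give the estimate and 95% interval from all 4 libraries and triangles give the value with 1 library left out. Dotted lines mark the threshold of 0.6 in either direction. Sgms2 is farthest from 0 at −1.82, and the intervals of Sptlc1, Sptlc2, Cers2 and Ugcg span 0.

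The enzymes that build ceramide were among the least different. Sptlc1, a subunit of the first enzyme of the pathway, had 938 and 1062 normalized counts in ctrl cells, against 946 and 1089 in Zfp276cko cells. These ranges overlapped almost entirely, and the log2 fold change of 0.03 (95% interval −0.33 to 0.38) leaves room for a change of moderate size in either direction. Without ctrl replicate 1 it was −0.06. Sptlc2, its partner with the catalytic site, had 2443 and 2157 normalized counts in ctrl cells, against 1907 and 1973 in Zfp276cko cells, and 84.3% of the ctrl mean remained. The log2 fold change was −0.25 (SE 0.10), and the quasi-likelihood test of edgeR, with Benjamini-Hochberg adjustment over all tested genes, gave an adjusted p of 0.362.

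Cers2, the ceramide synthase for very long acyl chains that predominates in OLs, had 5902 and 5738 normalized counts in ctrl cells, against 5023 and 4730 in Zfp276cko cells. Both genotypes were tight in this gene, and the gap between them was wider than the gap within either. Its log2 fold change of −0.26 (SE 0.10) had an adjusted p of 0.330 in the same test. Degs1, the desaturase of the last step to ceramide, had 5077 and 4533 normalized counts in ctrl cells, against 3800 and 3966 in Zfp276cko cells. Here too the genotypes did not overlap, with a log2 fold change of −0.31 (SE 0.11, adjusted p = 0.303 by edgeR). None of these 4 genes passed the fold threshold with any single library left out, since their log2 fold changes then ranged from −0.40 to 0.12.

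Sgms2 differed the most. This sphingomyelin synthase, which works at the plasma membrane and the Golgi, had 327 and 230 counts in ctrl cells, against 87 and 122 in Zfp276cko cells. After normalization these were 388 and 259 against 78.7 and 104.8, so that the higher Zfp276cko library held less than the lower ctrl library. Ctrl cells had a mean of 324 ± 91.5 and Zfp276cko cells a mean of 91.8 ± 18.5 (SD, n = 2 each), or 28.4% of ctrl. Its log2 fold change was −1.82 (SE 0.31, 95% interval −2.65 to −0.98, adjusted p = 0.145 by quasi-likelihood in edgeR). By DESeq2 it was −1.83 (adjusted p = 2.03e-04), and limma voom with weights per genotype gave −1.79 with an adjusted p of 0.0587. With any single library left out, the value was between −2.09 and −1.49. Counting error was small beside the difference, since the exact Poisson interval (95%) of the highest Zfp276cko count was 101 to 146 and that of the lowest ctrl count 201 to 262.

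Sgms1, the synthase of the Golgi that supplies most of the sphingomyelin in many cells, had 801 and 693 normalized counts in ctrl cells, against 507 and 508 in Zfp276cko cells. The Zfp276cko libraries were nearly equal and lay below both ctrl libraries, at 67.9% of the ctrl mean. The log2 fold change was −0.56 (SE 0.13, adjusted p = 0.198 by edgeR), and −0.67 without ctrl replicate 2. Within a library, the ratio of Sgms2 counts to Sgms1 counts was 0.484 and 0.373 in ctrl cells, against 0.155 and 0.206 in Zfp276cko cells. Such a ratio does not depend on how libraries are scaled. Its mean was 1.25 lower on the log2 scale in Zfp276cko cells (0.421 of the ctrl ratio), and the genotypes did not overlap. With 2 libraries against 2, the exact permutation test (two-sided) cannot go below 0.33, which is the p it gave here (adjusted p = 0.417 over 5 ratios).

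Ceramide is glycosylated by Ugcg and Ugt8a. Ugcg, the glucosylceramide synthase, had 816 and 966 normalized counts in ctrl cells, against 992 and 994 in Zfp276cko cells. It was the only member that lay above ctrl in every Zfp276cko library, but by little, with a log2 fold change of 0.16 (95% interval −0.19 to 0.50, adjusted p = 0.602 by edgeR) and 0.04 without ctrl replicate 1. Ugt8a, the galactosylceramide synthase and the most counted of the 10 genes, had 12634 and 15222 normalized counts in ctrl cells, against 8625 and 8951 in Zfp276cko cells. The means were 13928 ± 1830 and 8788 ± 231 (SD, n = 2 each), and 63.1% of the ctrl level remained. Its log2 fold change was −0.66 (SE 0.14, 95% interval −1.04 to −0.29, adjusted p = 0.179 by quasi-likelihood in edgeR, and 0.00133 by DESeq2). Without ctrl replicate 2 it was −0.54, short of the fold threshold.

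In each library Ugt8a outnumbered Ugcg, by 15.5-fold and 15.8-fold in ctrl and by 8.70-fold and 9.01-fold in Zfp276cko cells. The ratio was nearly the same within a genotype and 0.566 of the ctrl ratio in Zfp276cko cells. With any single library left out, this difference stayed between −0.85 and −0.80 on the log2 scale, the narrowest such range of the 5 ratios relative to its size (exact permutation p = 0.33, two-sided, the smallest that is possible).

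Fa2h and Gal3st1 take part with Ugt8a in making myelin galactolipids. Fa2h, the fatty acid 2-hydroxylase, had 2726 and 3475 normalized counts in ctrl cells, against 1779 and 1898 in Zfp276cko cells. Although the ctrl libraries differed from each other, both were well above the Zfp276cko libraries, in which 59.3% of the ctrl mean remained. The log2 fold change was −0.75 (SE 0.15, 95% interval −1.16 to −0.35, adjusted p = 0.170 by edgeR, and 0.0033 by DESeq2). Without ctrl replicate 2 it was −0.58 and thus short of the fold threshold. Gal3st1, the cerebroside sulfotransferase, had 2834 and 2792 normalized counts in ctrl cells, against 2035 and 1809 in Zfp276cko cells. Its ctrl libraries were almost equal and 68.3% of their mean remained, with a log2 fold change of −0.55 (SE 0.10, adjusted p = 0.160 by edgeR). DESeq2 gave Gal3st1 an adjusted p of 0.00816, and only the fold threshold kept it from being called.

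The 3 galactolipid enzymes differed little in their proportions to each other. Counts of Fa2h per count of Ugt8a were 0.216 and 0.228 in ctrl cells, against 0.206 and 0.212 in Zfp276cko cells. Counts of Gal3st1 per count of Ugt8a were 0.224 and 0.183 in ctrl cells, against 0.236 and 0.202 in Zfp276cko cells. The first was slightly lower in both Zfp276cko libraries and the second overlapped. The first ratio differed between genotypes by −0.09 on the log2 scale (exact permutation p = 0.33) and the second by 0.11 (p = 0.667), each two-sided with an adjusted p of 0.417 and 0.667 over the 5 ratios. The sign of the second turned when ctrl replicate 2 or Zfp276cko replicate 1 was left out. For the subunits of serine palmitoyltransferase, Sptlc2 counts per Sptlc1 count were 2.61 and 2.03 in ctrl cells, against 2.01 and 1.81 in Zfp276cko cells, and here the nearest libraries of the genotypes almost touched.

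**Figure D3:**
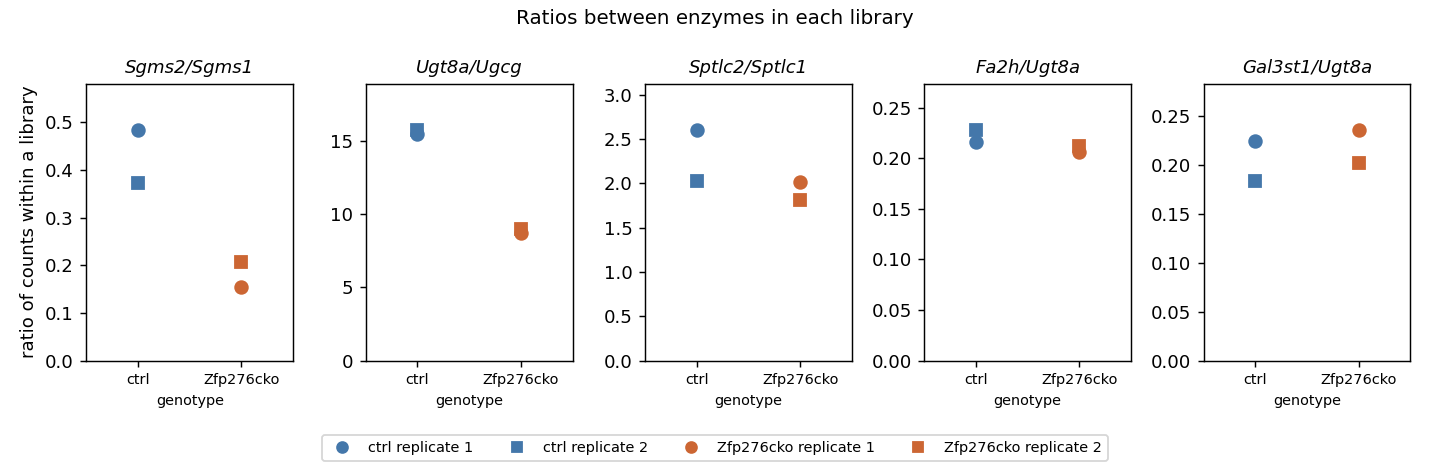
Ratios of raw counts between enzymes within each library, by genotype (x axis), with circles for replicate 1 and squares for replicate 2 and each y axis starting at 0. The ratios Sgms2/Sgms1 and Ugt8a/Ugcg are clearly lower in both Zfp276cko libraries, while Fa2h/Ugt8a lies between 0.206 and 0.228 in all 4.

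Levels of different genes can be compared only per length. Length here is that of all annotated exons of a gene together, so the order depends on the annotation. Values are CPM, scaled here to effective library sizes, per kilobase of exon (RPKM). Ugt8a led in ctrl cells with 129.9 ± 17.1 (SD, n = 2), followed by Degs1 with 78.5 ± 6.28 and Cers2 with 67.0 ± 1.34. After them came Gal3st1 with 58.3 ± 0.618 and Fa2h with 43.6 ± 7.45. Sptlc2 and Sptlc1 came next with 11.99 ± 1.06 and 11.9 ± 1.05 RPKM, and did not differ beyond their spread. Ugcg had 7.23 ± 0.860, Sgms1 2.998 ± 0.307 and Sgms2 2.20 ± 0.622 RPKM. The order was the same in Zfp276cko cells except that Sptlc1 (12.1 ± 1.202 RPKM) stood before Sptlc2 (10.1 ± 0.244). Between all other neighbours in the order the libraries of a genotype did not overlap. The sum of counts over all 10 genes was 1366 and 1556 CPM in ctrl cells, against 1124 and 1139 CPM in Zfp276cko cells.

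Among all tested genes with an average normalized count of 20 or more, the 5 whose profile over the 4 libraries came closest to the mean profile of Ugt8a, Fa2h and Gal3st1 were Jam3, Irx2, Evi5l, Aplp1 and Smurf1. Closeness was the root mean square distance of log2 CPM values centred on the mean of each gene, and 4 libraries give such a likeness little weight. Their log2 fold changes were between −0.72 (Irx2) and −0.62 (Evi5l). This nearness follows from how they were picked, since the profile includes the difference between the genotypes. Their distances from the mean profile were 0.015 (Jam3) to 0.028 (Smurf1). Ugt8a, Fa2h and Gal3st1 themselves lay farther from it, at 0.033, 0.079 and 0.109. Jam3, a junctional adhesion molecule, had 3621 and 4054 normalized counts in ctrl cells, against 2420 and 2448 in Zfp276cko cells.

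Of 79 other genes of the pathway in 7 lists, 72 were tested, and edgeR called 0 of them. Each Zfp276cko library lay below both of ctrl for 21 (29.2% of the 72, against 23.7% of all tested genes) and above for 18 (25%, against 26.8%). With an unadjusted p and the same thresholds on fold and mean, 4 were lower (Gltp, S1pr5, Hacd1 and Elovl6) and 3 higher (Gla, Smpdl3a and B4galt5). These are 5.56% and 4.17% of the 72, near the 3.02% and 5.11% of all genes. DESeq2 called Gltp and Spns2 (a sphingosine phosphate transporter, log2 fold change −0.61) lower and Gla higher, which is 2.78% and 1.39% of the 72 against 2.07% and 2.68% of all genes. The 7 untested genes, among them Sptlc3, Degs2 and Elovl3, had at most 8 counts in any library.

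**Figure D4:**
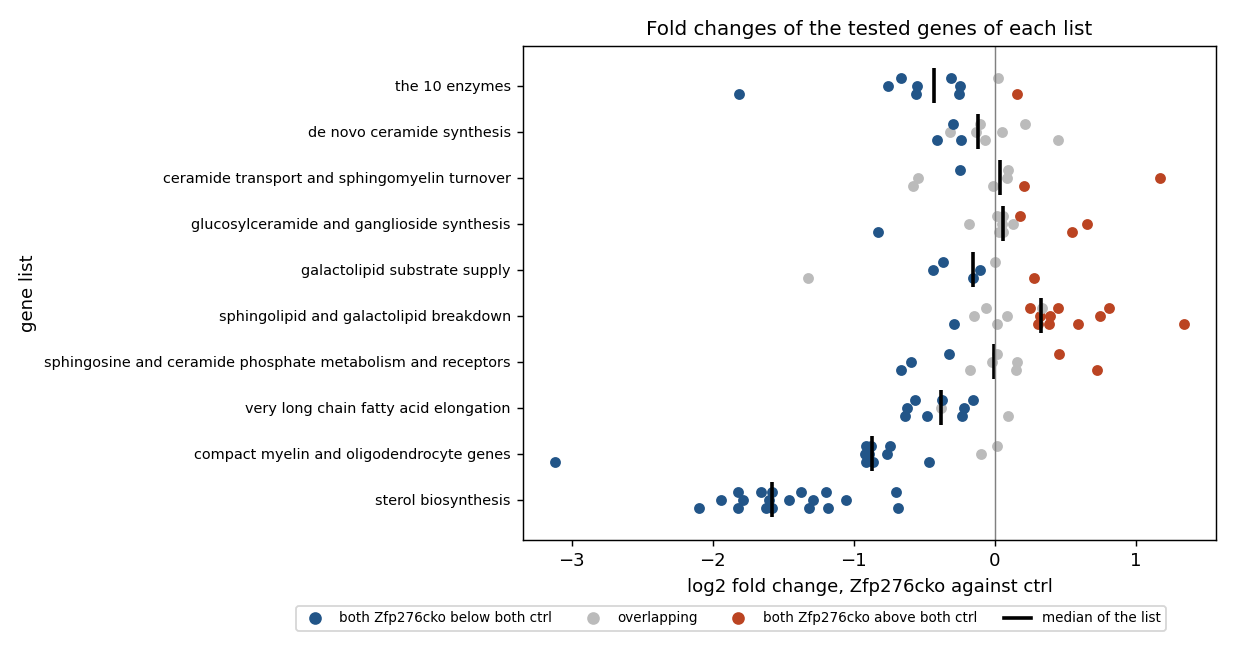
Log2 fold changes of the tested genes of 10 lists (1 point per gene, y axis by list, black bars for medians), coloured by whether each Zfp276cko library lay below or above both of ctrl. The medians are −0.43 for the 10 enzymes, 0.33 for breakdown genes, −0.38 for elongation genes, −0.87 for compact myelin and oligodendrocyte genes and −1.58 for sterol biosynthesis.

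Over all tested genes, 23.7% lay below and 26.8% above both of ctrl, and the counts per list stand beside these shares. Of 10 other tested genes of ceramide synthesis, 3 lay below and none above, at a median of −0.12 on the log2 scale. Kdsr, the ketoreductase after serine palmitoyltransferase, had 480 and 544 normalized counts in ctrl cells, against 498 and 564 in Zfp276cko cells, and these overlapped. Ormdl3, a brake on serine palmitoyltransferase, had a log2 fold change of −0.07 (SE 0.10). Genes of ceramide transport and sphingomyelin turnover were mixed, with 1 of 8 below and 2 above and a median of 0.04. Smpdl3a, a phosphodiesterase related to acid sphingomyelinase, had 1902 and 845 normalized counts in ctrl cells, against 3137 and 3055 in Zfp276cko cells (log2 fold change 1.17, SE 0.41, adjusted p = 0.304 by edgeR). Col4a3bp (also Cert1), which carries ceramide to the Golgi for sphingomyelin synthesis, lay slightly above ctrl at 0.21 (SE 0.13).

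In the list of glucosylceramide and ganglioside synthesis, 1 of 11 genes lay below and 3 above, with a median of 0.06. Over all tested genes these shares were 23.7% and 26.8%. The gene below was Gltp, a transfer protein for glycolipids, with 10997 and 11592 normalized counts in ctrl cells, against 6223 and 6494 in Zfp276cko cells. Both genotypes were narrow, 56.3% of the ctrl mean remained, and the log2 fold change of −0.83 (SE 0.10) had an adjusted p of 0.118 by edgeR and of 4.11e-09 by DESeq2. B4galt5, which makes lactosylceramide from the product of Ugcg, had 578 and 783 normalized counts in ctrl cells, against 1136 and 1008 in Zfp276cko cells (log2 fold change 0.65, SE 0.19, adjusted p = 0.244 by edgeR). Of 7 genes that supply substrates of galactolipids, 4 lay below and 1 above, with a median of −0.16. Papss1, which makes the sulfate donor that Gal3st1 uses, had a log2 fold change of −0.37 (SE 0.11), and Slc35b2, which carries this donor into the Golgi, one of −0.44 (SE 0.11). Their adjusted p-values by edgeR were 0.244 and 0.219.

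More breakdown genes lay above ctrl than below. Of 16 tested, 10 lay above both ctrl libraries and 1 below, where 26.8% of all tested genes lay above and 23.7% below. The median log2 fold change was 0.33, or 0.66 without ctrl replicate 1 and 0.10 without ctrl replicate 2. Gla, the lysosomal alpha-galactosidase, had 961 and 773 normalized counts in ctrl cells, against 2203 and 2196 in Zfp276cko cells. Its log2 fold change was 1.34 (SE 0.14, adjusted p = 0.103 by edgeR and 3.98e-09 by DESeq2). Psap, the precursor of the saposins, had 52663 and 26640 normalized counts in ctrl cells, against 72148 and 67109 in Zfp276cko cells. Galc, the enzyme that degrades galactosylceramide, overlapped between genotypes with a log2 fold change of −0.14 (SE 0.13), and Arsa, which degrades sulfatide, was at 0.39 (SE 0.23, adjusted p = 0.478). Of 10 microglia markers, 3 lay above both of ctrl and none below. Whether microglia had a part in these values was not tested.

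Among 10 tested genes of fatty acid elongation, 8 lay below both ctrl libraries and none above, with a median of −0.38. The shares over all tested genes were 23.7% below and 26.8% above. Elovl6 had 7379 and 4986 normalized counts in ctrl cells, against 3861 and 4105 in Zfp276cko cells, and Hacd1 had 539 and 511 against 359 and 323. Their log2 fold changes were −0.63 (SE 0.22) and −0.62 (SE 0.14), with adjusted p-values of 0.301 and 0.189 by edgeR. Elovl1, which feeds very long chains to Cers2, was at −0.23 (SE 0.13). For sphingosine and ceramide phosphates, 3 of 10 genes lay below and 2 above, with a median of −0.0014. S1pr5, a sphingosine phosphate receptor of OLs, had 300 and 248 normalized counts in ctrl cells, against 178 and 167 in Zfp276cko cells (log2 fold change −0.67, SE 0.20, adjusted p = 0.251 by edgeR and 0.203 by DESeq2).

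Lists outside the pathway differed between the genotypes in the same libraries. Beside them stand the shares over all tested genes, 23.7% below and 26.8% above both of ctrl. Of 12 compact myelin and oligodendrocyte genes, 10 lay below both of ctrl and none above, at a median of −0.87 on the log2 scale. All 19 sterol biosynthesis genes lay below, with a median of −1.58 (−0.93 without ctrl replicate 1 and −2.01 without ctrl replicate 2). All 20 interferon response genes lay above, with a median of 3.27, and their summed level was 583 and 273 CPM in ctrl cells, against 4599 and 4518 CPM in Zfp276cko cells. Markers of OL precursor cells (OPCs) summed to 7393 and 5877 CPM in ctrl and to 4758 and 4690 CPM in Zfp276cko cells, but the list was mixed, with 3 of 7 genes below, 1 above and a median of −0.13. Nearly all of the difference in this sum came from Gpr17, the highest of these genes, and the other markers together summed to similar levels in both genotypes. Gpr17 had 113405 and 69766 normalized counts in ctrl cells, against 43296 and 41092 in Zfp276cko cells. Cspg4 and Ptprz1 also lay below, at 66.6% and 83.8% of the ctrl mean. Sox5 lay above at 167%, while Pdgfra, Sox6 and Lhfpl3 overlapped. The part of each of these in the values of the 10 enzymes was not tested.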

How the data were processed

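RNA-Seq libraries (stranded mRNA, single-end) came from 2 ctrl and 2 Zfp276cko preparations. Reads were mapped by the authors to mm10 (STAR 2.5.4a), and the deposited values are raw counts, 1 row per gene. Their methods name HTSeq as the counter and the submitters' processing notes name featureCounts (1.5.1), and this was not resolved. Ctrl libraries held 21311469 and 21068322 counted reads, Zfp276cko libraries 25265366 and 26599809.

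Of 53465 genes, 15766 passed filterByExpr (99.9% of counts). Genotypes were compared with edgeR 4.0.16 (R 4.3.3; TMM, quasi-likelihood test with legacy estimation, no covariates) and Benjamini-Hochberg adjustment over all tested genes. Normalized counts were brought to the mean effective library size. RPKM and the nearest profiles used CPM on effective library sizes, while summed CPM used library totals. Lengths for RPKM (all annotated exons of a gene together) and positions came from GENCODE M21. Alternatives used DESeq2 1.42.0, limma 3.58.1, other size factors, filters and thresholds, a replicate block, and each library left out. P-values of edgeR weigh a difference against a spread that rests on 2 libraries per genotype. This spread was taken as common to both genotypes and was estimated partly across genes. P-values of ratios come from the exact permutation test. Intervals on counts cover counting error only. The workflow was tested only on simulated counts with the same low spread in both genotypes. The ctrl pair here varied far more, so that test does not show how the workflow performs at this spread.

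Named genes are the 10 enzymes, Zfp276, listed pathway genes with an unadjusted p of at most 0.05 (log2 fold change of at least 0.6 in size, mean of at least 20), the 5 nearest profiles, and defining markers at 0 (Cldn5). Kdsr, Ormdl3, Col4a3bp, Papss1, Slc35b2, Psap, Galc, Arsa, Elovl1, Spns2, Sptlc3, Degs2 and Elovl3 were named after their values were seen. So were Gpr17, Pdgfra, Sox5, Sox6, Lhfpl3, Cspg4, Ptprz1, Map2 and Syt1. Members and lists were chosen with earlier results of these data known.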

Additional observations from a re-analysis of the deposited data

How the results depend on the processing

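Over the 14 alternatives, 124 of 140 values of the 10 enzymes kept their direction and their side of the call, 14 passed the call that they missed before, and 2 turned their sign, both of Sptlc1 (−0.06 without ctrl replicate 1 and −0.080 without Zfp276cko replicate 2, in a range from −0.080 to 0.12). These values are not independent, since the settings with an unadjusted p and without thresholds reuse the fold changes of the main fit. DESeq2 without its filtering likewise repeats those of DESeq2. Of all genes, DESeq2 called 327 lower and 423 higher (326 and 419 without its independent filtering). Limma voom with weights per genotype called 72 and 133, and an unadjusted p passed 476 and 806. Without a filter on low counts, edgeR called 0 lower and 8 higher. With 1 library left out it called between 0 and 1253 genes lower and between 0 and 1799 higher, where the 0 counts are those without a Zfp276cko library. Of the 10 enzymes, 3 were called lower by DESeq2 with and without its filtering and by an unadjusted p, 0 by limma, and between 0 and 3 with 1 library left out. Their median log2 fold change was between −0.47 and −0.34 with 1 library left out. The log2 difference of the ratio of Gal3st1 to Ugt8a lay between −0.039 and 0.25, with −0.0057 without Zfp276cko replicate 1 and −0.039 without ctrl replicate 2. The labels give replicate numbers but no shared litter or day, and deviations of same-numbered libraries had a correlation of 0.0064 across genes. With a replicate block, 0 genes were called lower and 0 higher, as in the fit without it. The cause of these differences was not tested. Precision is limited by 2 libraries per genotype and by the spread of the ctrl pair.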
